A study of Mus musculus with 2 samples.

Results

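Among dissociated crypt epithelium of the mouse small intestine, 77 of 8624 cell barcodes carried transcripts of dividing cells and of goblet cells together, and these cycling goblet barcodes are described here. A barcode is the sequence that tags all RNA of 1 droplet, and a UMI is 1 tagged RNA molecule. The members were chosen by measured values, namely more than 500 genes, less than 25% of UMIs from mitochondrial genes, at least 3 of 8 cell cycle genes (Mki67, Top2a, Birc5, Ube2c, Cdc20, Ccnb1, Cenpf, Pclaf), at least 1% of their UMIs from 6 goblet genes together (Muc2, Tff3, Zg16, Fcgbp, Clca1, Spink4) and no UMI of the T cell receptor genes Cd3e and Cd3g. A droplet that held RNA of several cells can meet these conditions as well as a single cell, and therefore the members are called barcodes and given no cell type name.

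The study compared adip fl/fl mice, in which the adiponectin gene carries loxP sites and is intact, with their adip fl/fl-Villi-Cre littermates, in which Cre under the villin promoter removes adiponectin from gut epithelium. All mice were 8-week-old males without a treatment, and crypt-enriched epithelial cells of several mice were pooled into 1 droplet library per genotype. The adip fl/fl library held 9791 barcodes and 42150623 UMIs, of which 3069 barcodes passed the limits on genes and mitochondrial share. The adip fl/fl-Villi-Cre library held 11838 barcodes and 63370798 UMIs, of which 5555 passed. The mitochondrial limit alone removed 4670 and 4263 barcodes. The libraries shared 31 barcode sequences, none of them among the 77 members. With 1 library per genotype no test between genotypes was possible, and every interval below covers counting error only.

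Goblet cells make and secrete the mucus of the gut. They arise with Paneth and enteroendocrine cells from crypt progenitors in which the transcription factor Atoh1 is switched on, while neighbours that receive Notch signals keep dividing or become absorptive cells. Secretory precursors can still divide for a short time, and the mature goblet cell is filled with Muc2, the gel-forming mucin, Fcgbp, Clca1 and Zg16, further proteins of the mucus layer, and the small secreted proteins Tff3 and Spink4.

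The values that the members were selected on are given as a description. Mki67, the proliferation antigen, was found in 4 of 4 adip fl/fl and 64 of 73 adip fl/fl-Villi-Cre members, Tff3 in all 77, Muc2 in 4 and 70, Spink4 in 4 and 72, and Zg16 in 3 and 70. Among passing barcodes above the goblet limit, the number of cell cycle genes left a gap in the adip fl/fl library, where 1 barcode had 2 of the genes, none had 3 or 4, and the members had 5 to 8. In the adip fl/fl-Villi-Cre library 12 barcodes had 2, 3 had 3 and 12 had 4. Just inside the goblet limit lay a member with 1.35% in adip fl/fl and members with 1.02% and 1.04% in adip fl/fl-Villi-Cre. The cycling barcode just outside had 0.509% in adip fl/fl, and the nearest pair of the adip fl/fl-Villi-Cre library had 0.986% and 0.984%.

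Cycling goblet barcodes were a larger share of the adip fl/fl-Villi-Cre library. They made up 4 of 3069 passing barcodes in adip fl/fl, or 0.130% (exact Clopper-Pearson 95% interval 0.0355 to 0.333), and 73 of 5555 in adip fl/fl-Villi-Cre, or 1.31% (1.03 to 1.65). The ratio of the shares was 10.1 (exact conditional 95% interval 3.77 to 38.0), which describes these 2 libraries. The 2 sets nearest to them differed less between libraries. Barcodes that met the rule except for a goblet share under 1%, called cycling barcodes below, were 86 (2.80%) in adip fl/fl and 211 (3.80%) in adip fl/fl-Villi-Cre, with a ratio of 1.36 (1.05 to 1.76). Barcodes that met the rule except for fewer than 3 cell cycle genes, called goblet barcodes below, were 225 (7.33%) and 469 (8.44%), with a ratio of 1.15 (0.980 to 1.36). Goblet transcripts outside these sets also differed between libraries. Their median share in adip fl/fl and adip fl/fl-Villi-Cre was 0.0719% and 0.201% in barcodes of at most 500 genes. It was 0.0163% and 0.0357% in cycling barcodes and 0.0310% and 0.0770% in barcodes that were neither. How much of the ratio of 10.1 this accounts for was not tested. Since detection rises with depth, each barcode was also thinned to 2000 UMIs, and 4 of 2890 and 57 of 5259 barcodes of that depth then met the rule, a ratio of 7.83 (2.90 to 29.7). A gene filter, the mitochondrial limit or the T cell condition set differently kept the ratio between 9.64 and 14.8. At a goblet share of at least 5% only 0 and 6 barcodes were left, and without the 8% of barcodes with the highest doublet scores 1 and 69 were left (ratio 38.2, 6.62 to 1528). In the plot of goblet share against depth the adip fl/fl members are 4 scattered points, whereas most adip fl/fl-Villi-Cre members lie in 1 band.

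**Figure D1:**
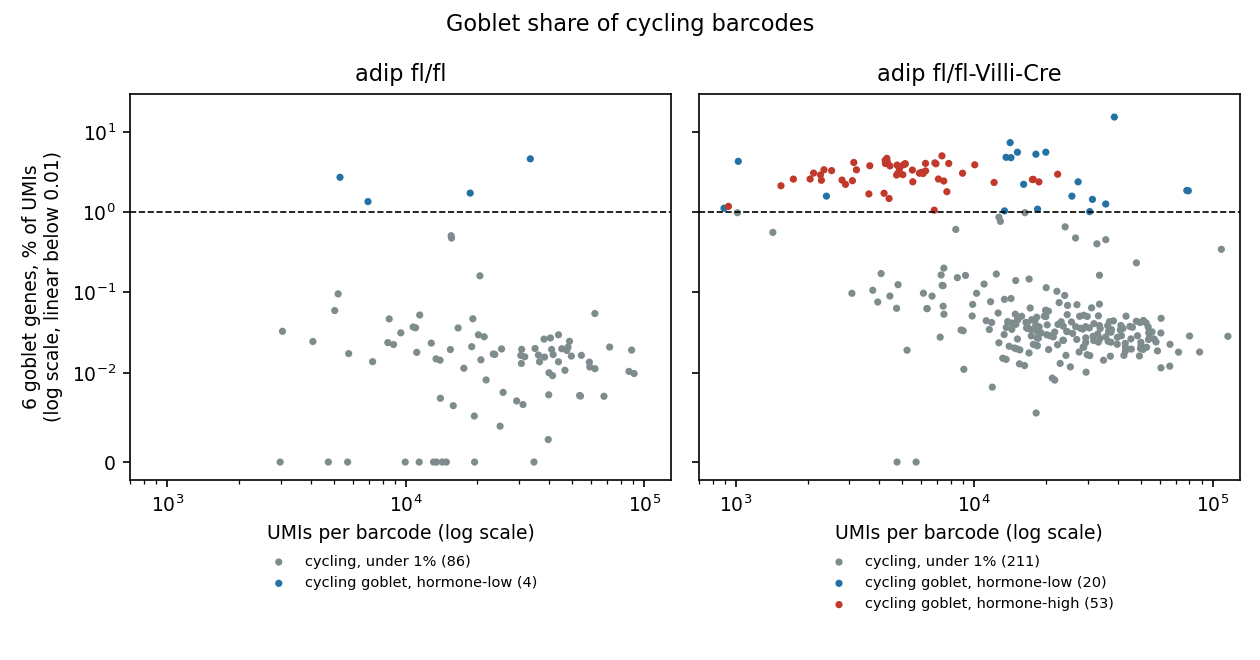
Each point is a barcode with at least 3 of the 8 cell cycle genes and no Cd3e or Cd3g, with its UMIs on the x axis (log scale) and the share of UMIs from the 6 goblet genes on the y axis (log scale, linear below 0.01%). The dashed line is the 1% limit, above which lie 4 barcodes of adip fl/fl and 73 of adip fl/fl-Villi-Cre, 53 of them rich in enteroendocrine transcripts (hormone-high, red) and forming 1 band between 1.06% and 5.02%.

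The 4 adip fl/fl members differed widely from each other. They held 5303, 6949, 18646 and 33328 UMIs, with mitochondrial shares of 22.8%, 9.12%, 3.59% and 1.72% and goblet shares of 2.72%, 1.35%, 1.73% and 4.61%. The deepest held 51.9% of all UMIs of the 4, and sums over them therefore rest largely on 1 barcode. In that order Muc2 had 41, 13, 8 and 73 UMIs, Tff3 had 9, 33, 198 and 858, and Zg16 had 7, 0, 1 and 20. Agr2, a protein disulfide isomerase that mucin folding needs and that the rule did not use, had 25, 46, 162 and 1142 UMIs. Dll1, the Notch ligand of secretory precursors, was found in all 4 (3, 2, 2 and 8 UMIs), and Atoh1 in 3 of them (0, 2, 1 and 8 UMIs). Sct, which encodes the hormone secretin, had 21 UMIs in the deepest member, where the 19 enteroendocrine genes described next summed to 660 CPM (UMIs per 1000000 UMIs of the barcode). The other 3 had no UMI of these genes.

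The 73 adip fl/fl-Villi-Cre members fell into groups of unlike content. The summed level of 19 enteroendocrine genes reached 853 to 4795 CPM in 53 of them, with a median of 2354, and lay under 800 CPM in the other 20 and in all 4 adip fl/fl members. The line at 800 CPM was drawn after the values were seen, and the barcodes next to it had 853 and 771 CPM. The groups are called hormone-high and hormone-low below, and differences between them are a description. None of the 3069 passing adip fl/fl barcodes was a hormone-high member (exact 95% upper limit 0.120%, while 3 barcodes would be 0.0978%), against 53 of 5555 (0.954%, 0.716 to 1.25) in adip fl/fl-Villi-Cre. Hormone-low members were 0.130% and 0.360% (0.220 to 0.556), and their ratio of 2.76 had an interval from 0.925 to 11.1, so a difference was not detectable at this depth. After thinning to 2000 UMIs the 4 of adip fl/fl still met the rule, but only 9 of 18 hormone-low members of adip fl/fl-Villi-Cre did, against 48 of 50 hormone-high ones, so the larger share after thinning rested mainly on hormone-high members. Among the barcodes outside the rule, 800 CPM was reached by 1 of 86 and 0 of 211 cycling barcodes and by 56 of 225 and 100 of 469 goblet barcodes.

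**Figure D2:**
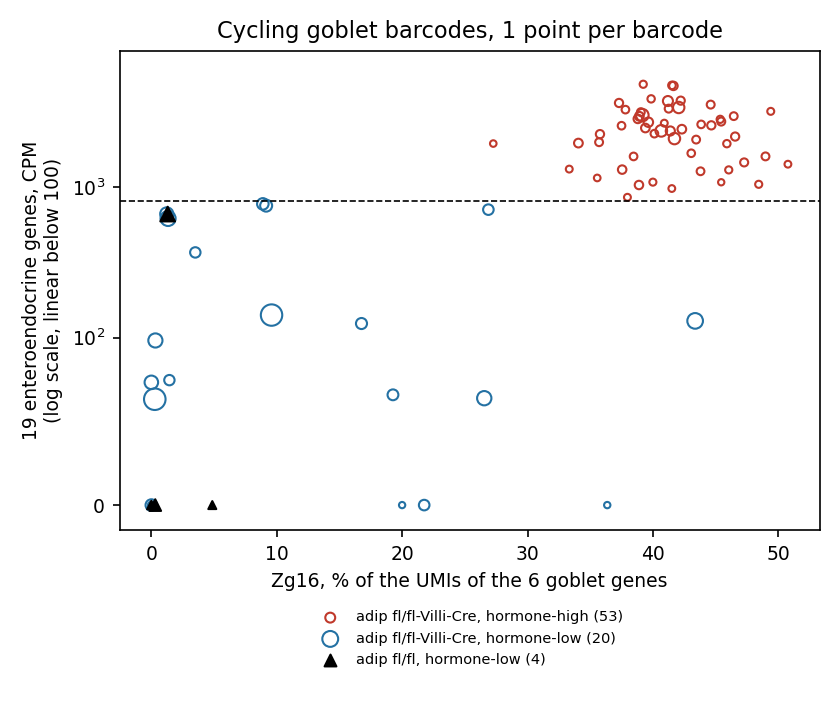
Each point is 1 of the 77 cycling goblet barcodes, with the share of Zg16 in the UMIs of the 6 goblet genes on the x axis, the summed level of 19 enteroendocrine genes in CPM on the y axis (log scale, linear below 100) and an area that grows with the UMIs of the barcode. The 53 hormone-high members above the dashed line at 800 CPM sit between 27.3% and 50.8% Zg16, while the hormone-low members spread from 0% to 43.4%.

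Hormone-high members carried goblet transcripts, the enteroendocrine transcripts Sct, Pyy and Nts and the Paneth cell transcript Defa24 in the same barcode. Sct was found in 49 of the 53 (353 UMIs), Pyy, which encodes peptide YY, in 45 (184 UMIs), Nts, which encodes neurotensin, in 46 (192 UMIs), and Defa24, a Paneth cell defensin, in 51 (338 UMIs). Lyz1, the Paneth cell lysozyme, was found in only 21 (28 UMIs), and of 4 measured Paneth genes 1 was higher and 2 were lower than in hormone-low members. No single barcode held most of these, as the highest counts in 1 barcode were 33 for Sct, 14 for Pyy, 18 for Nts and 27 for Defa24. The rest of the enteroendocrine list was sparse. Chgb was found in 14 of the 53 (21 UMIs). Over all 73 adip fl/fl-Villi-Cre members no other listed gene than Sct, Pyy and Nts exceeded the 22 UMIs of Chgb. Tac1, Gcg, Sst, Pax4 and Fev had no UMI there. Sct also had 419 and 478 CPM in goblet barcodes. Zg16 is a rule gene, and Sct, Pyy and Nts are among the 19 genes on which the 800 CPM line was drawn, so the shares that follow are set in part by the choice and only describe the barcodes. After thinning to 4000 UMIs, 35 of 37 hormone-high members held Zg16, Sct and Defa24 together, which 2 of 17 hormone-low adip fl/fl-Villi-Cre members, 0 of 84 and 1 of 206 cycling barcodes and 44 of 170 and 67 of 340 goblet barcodes did. Pyy and Nts together, hormones of the distal gut, were in 31 of 37 hormone-high members and in 0 of 84 and 0 of 206 cycling barcodes, 0 of 170 and 1 of 340 goblet barcodes and 5 of 1290 and 6 of 2271 barcodes that were neither. Sct at 2000 UMIs was in 39 of 50 hormone-high members, and in 11 of 385 and 41 of 539 barcodes with Cd3e or Cd3g and fewer than 3 cell cycle genes. T cells should lack Sct, but these barcodes were not free of epithelial RNA, as Zg16 was found in 180 of 402 and 446 of 587 of them before thinning. It summed to 2744 and 3153 CPM, but 1 barcode held 67.1% of its adip fl/fl UMIs, and the median barcode had 0 and 283 CPM. The median depth of these barcodes with Cd3e or Cd3g was 4840 and 4480 UMIs, and that of hormone-high members 4857.

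Stem cell genes were low in the same barcodes, whereas the secretory lineage factors summed to about the level of the cycling barcodes. In all 53 hormone-high members together Atoh1 had 3 UMIs, Dll1 had 1, Sox4, a factor of early secretory precursors, had 4, Olfm4, a stem cell gene, had 5, and Neurog3, which starts the enteroendocrine lineage, had none in 316725 UMIs. At 9.47 CPM Atoh1 was nonetheless not below the cycling barcodes, which had 0.396 and 2.98 CPM, while Sox4 had 12.6 CPM against 90.8 and 103 CPM. The 12 stem cell genes summed to 177 CPM, against 1135 and 1675 CPM in the cycling barcodes, and the 18 secretory lineage factors to 499 CPM, against 484 and 497. The 32 genes of G2 and M phase summed to 4237 CPM, against 3408 and 2863, and the 30 genes of S phase to 1092 CPM, against 813 and 941. Enterocyte genes such as Apoa1 and Fabp2, which carry lipid in the blood and in the cell, summed to 7369 CPM, against 4304 and 6762. Both cell cycle lists thus lay above the level of the cycling barcodes and the stem cell list below it.

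The counts of single genes varied less between hormone-high members than within any other set compared. Hormone-high members were picked by their content after the values were seen, so low variation can in part be set by that choice. For 201 genes the variance of the counts between barcodes was divided by their mean after thinning to 4000 UMIs, a ratio near 1 being that of random sampling from 1 RNA mixture. Its median was 1.09 over the 37 hormone-high members of that depth, and 4.48% of the genes exceeded 2. Over 17 hormone-low adip fl/fl-Villi-Cre members it was 1.36, with 20.9% of genes over 2, and it was 1.59 and 1.64 in the cycling barcodes, 2.34 and 2.34 in the goblet barcodes, 3.05 and 2.83 in barcodes that were neither and 1.45 and 1.83 in cycling barcodes with Cd3e or Cd3g. By another measure the order was different. The median correlation of log counts between pairs of barcodes was 0.675 in hormone-high members, 0.651 and 0.647 in cycling barcodes and 0.815 and 0.748 in cycling barcodes with Cd3e or Cd3g, so the last were the more alike. Malat1, a nuclear RNA, was the most variable gene in hormone-high members at 26.5, followed by Rn18s-rs5 at 11.8, Apoa1 at 8.56 and Fabp2 at 5.52. Within the 53, the goblet share followed the summed Paneth genes (Pearson r = 0.677, Spearman rho = 0.638) and the enteroendocrine genes (r = 0.497, rho = 0.484), and ran against the enterocyte genes (r = -0.419, rho = -0.305). The enterocyte genes ran more strongly against depth in UMIs (r = -0.454, rho = -0.721), whereas the goblet share hardly followed depth (r = -0.0387, rho = 0.0957). These coefficients describe barcodes of 1 library that share its background RNA and have unequal depth.

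**Figure D3:**
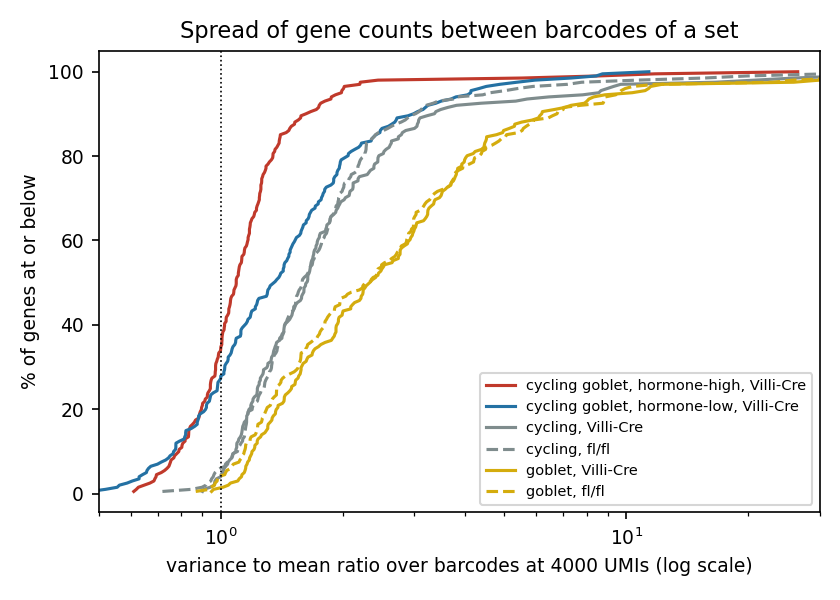
The x axis (log scale) is the variance to mean ratio of a gene's counts over the barcodes of a set, each thinned to 4000 UMIs, and the y axis is the percentage of the 201 genes at or below it, with 1 line per set. The hormone-high line climbs near the dotted line at 1, with a median of 1.09, and the cycling and goblet barcodes lie to the right of it, with medians from 1.59 to 2.34.

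The barcode sequences of hormone-high members were compared with each other. Of the 1378 pairs of hormone-high members, 8 (0.581%) differed at 6 or fewer positions, as did 0.362% of the 15426235 pairs of all passing adip fl/fl-Villi-Cre barcodes, and the median was 12 positions in both. The smallest distance was 3. The 3 closest pairs are shown with the bases that both members of a pair share in capitals.
hormone-high member with 3618 UMIs: acTcCCATCACCCATC
hormone-high member with 5893 UMIs, 3 differences from the former: ttTaCCATCACCCATC
hormone-high member with 17551 UMIs: CAAccTCTCaTtGCcC
hormone-high member with 4729 UMIs, 5 differences from the former: CAAttTCTCtTgGCtC
hormone-high member with 2524 UMIs: CACTTCGagAtGaTtG
hormone-high member with 4434 UMIs, 5 differences from the former: CACTTCGtcAgGgTaG
The first pair held 28 and 76 UMIs of Zg16 and 1 and 9 of Sct, the second 188 and 60 of Zg16 and 33 and 4 of Sct, and the third 41 and 67 of Zg16 and 4 and 4 of Sct. Whether pairs came from 1 droplet was not tested.

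The 20 hormone-low adip fl/fl-Villi-Cre members were deeper and more varied. They held 893 to 79097 UMIs, with a median of 18300, and 60.9% of all UMIs of the 73 members. Atoh1 was found in 14 of them (59 UMIs), Dll1 in 13 (63 UMIs), Sox4 in 12 (131 UMIs) and Olfm4 in 15 (301 UMIs). Neurog3 was found in 2 members with 37 and 14 UMIs, and the same 2 had the highest Sox4 counts of the 20, with 48 and 42 UMIs. Single barcodes stood apart from the rest. One held all 54 UMIs of Acta2, the actin of smooth muscle, and 1 with a goblet share of 15.3% held 2566 of the 3721 Zg16 UMIs of the 20. At 2000 UMIs Atoh1 was in 4 of 18 and Olfm4 in 8 of 18 of them, against 1 and 2 of 50 hormone-high members. In cycling barcodes of that depth Atoh1 was in 0 of 86 and 0 of 209, and Olfm4 in 24 and 60. The summed stem cell genes reached 1417 CPM and the lineage factors 2022 CPM, the latter being close to the 2631 CPM of the adip fl/fl members.

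The proportions of the 6 goblet transcripts, which the rule did not set, differed from those of goblet barcodes for Spink4, Muc2 and Clca1 in both libraries. Zg16 and Tff3 differed in adip fl/fl, and in adip fl/fl-Villi-Cre in opposite directions in hormone-high and hormone-low members. Zg16 made up 1.34% of the UMIs of the 6 genes in the adip fl/fl members and 28.7% in the adip fl/fl-Villi-Cre members, against 32.8% and 32.4% in the goblet barcodes. It was 41.1% in the hormone-high members, where Zg16 had more UMIs than Tff3 in 53 of 53 barcodes, and 21.7% in the hormone-low ones, with a median barcode at 9.02%. None of the 4 adip fl/fl members exceeded 4.86% Zg16, and the hormone-high members did not overlap with them. Tff3 made up 52.4% in the adip fl/fl members and 33.5% in the adip fl/fl-Villi-Cre members, against 31.6% and 31.3% in goblet barcodes. Its adip fl/fl value was 42.9% without the richest barcode and 39.7% as a mean over the 4, which ranged from 6.25% to 61.5%. In adip fl/fl-Villi-Cre, Tff3 was 22.9% in the hormone-high and 39.5% in the hormone-low members, so the value over all members of that library hides opposite differences. Spink4, a secreted peptide of goblet cells, made up 22.2% and 17.8%, against 4.02% and 4.15% in goblet barcodes, 5.61% and 12.6% in cycling barcodes, and 4.36% and 4.30% in barcodes of at most 500 genes. It was high in hormone-high (21.5%) and hormone-low (15.7%) members alike. Muc2 was lower in members (6.44% and 8.29%) than in goblet barcodes (14.6% and 15.7%), but the adip fl/fl value was 11.1% without the richest barcode and 12.4% as a mean over the 4, which ranged from 2.48% to 28.5%. Clca1 was lower too (1.24% and 1.60%, against 3.27% and 3.50%), but its adip fl/fl value was 2.50% without the richest barcode.

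**Figure D4:**
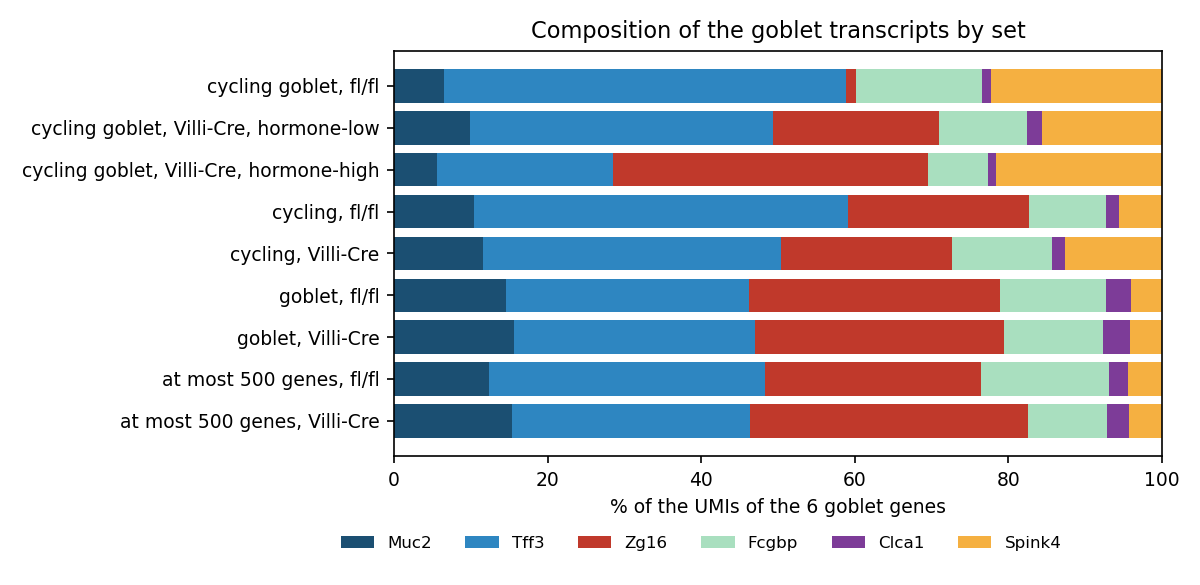
Each bar splits the UMIs of the 6 goblet genes, summed over the barcodes of a set, into the percentage of each gene. Zg16 (red) takes 1.34% of the adip fl/fl bar and 41.1% of the hormone-high bar of the cycling goblet barcodes, and Spink4 (orange) is wider in all their bars than in the goblet barcodes.

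Members were next compared with cycling barcodes, from which they differ by their goblet share through the rule itself. UMIs were summed over the barcodes of a set, and a gene was counted as different when its CPM differed at least 2-fold with a 95% interval of the ratio that left out 1. Genes needed at least 50 CPM in 1 set, 20 UMIs and a UMI in 10% of its barcodes. A gene could pass this filter through the members alone, and the members were chosen for goblet and cell cycle transcripts. Counts of higher genes on such lists, here and against goblet barcodes below, are therefore set in part by the choice and are a description. Of 3531 genes so measured in both libraries, 76 (2.15%) were higher in the members of both and 18 (0.510%) lower. Within adip fl/fl alone 11.1% of the genes were higher and 8.29% lower, and within adip fl/fl-Villi-Cre 2.83% and 1.36%. Of 15 goblet genes outside the rule 5 passed the filter in both libraries, in adip fl/fl through the members only, and were higher in both. These were Agr2, Guca2a, which encodes the fluid-regulating peptide guanylin, Galnt12, which starts mucin glycosylation, Klk1 and Slc12a8. Agr2 had 21409 CPM in the adip fl/fl members and 5.15 CPM in cycling barcodes, and 5095 and 60.1 CPM in adip fl/fl-Villi-Cre, an 84.7-fold difference (75.9 to 94.9). Guca2a was higher 75.7-fold (46.7 to 125) and 18.6-fold (16.3 to 21.3).

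Factors of the secretory lineage were higher in the members of both libraries for 4 of 7 measured genes, in adip fl/fl-Villi-Cre largely through the 20 hormone-low members. Creb3l1, a secretory pathway regulator, was higher 32.9-fold (19.8 to 54.5) in adip fl/fl and 14.5-fold (10.7 to 19.8) in adip fl/fl-Villi-Cre. Klf4, a goblet differentiation factor, was higher 7.05-fold (4.77 to 10.2) and 3.24-fold (2.76 to 3.78), and Dll1 16.8-fold (8.54 to 31.6) and 4.95-fold (3.54 to 6.89). The corepressor Cbfa2t3 was the fourth. Creb3l1, Dll1 and Cbfa2t3 reached the CPM limit of the filter through the members alone, where they were high. In the cycling barcodes Creb3l1 had 14.7 and 11.6 CPM, Dll1 13.9 and 15.95 CPM, and Cbfa2t3 5.55 and 9.64 CPM. Klf4 lay above the limit there too, with 77.3 and 89.9 CPM. The count of 4 of 7 is therefore set in part by the filter and is a description. Atoh1 had 11 UMIs in the adip fl/fl members (171 CPM) and 1 in the cycling barcodes, and 76.5 CPM in the adip fl/fl-Villi-Cre members, 25.7-fold (14.8 to 46.8) above theirs. In that library 59 of the 62 Atoh1 UMIs, 63 of the 64 Dll1 UMIs and 53 of the 57 Cbfa2t3 UMIs lay in hormone-low members. In the hormone-high members Dll1 had 3.16 CPM, below the 15.95 CPM of the cycling barcodes, and Cbfa2t3 had 12.6 against 9.64 CPM, whereas Creb3l1 had 44.2 against 11.6 CPM and Klf4 136 against 89.9 CPM. None of the 3 measured Notch pathway genes differed in both libraries.

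Few genes of the remaining lists differed from cycling barcodes in both libraries. The mitotic genes Anln and Aurkb were higher, 2 of 21 measured genes of G2 and M phase, as were 2 of 24 genes of the endoplasmic reticulum, Pdia6, a disulfide isomerase (5.94-fold, 4.62 to 7.57, and 2.09-fold, 1.87 to 2.34), and Sdf2l1. In the adip fl/fl members alone 19 of 25 genes of the endoplasmic reticulum were higher. Olfm4 was lower, at 0.156 (0.0625 to 0.321) and 0.347 (0.308 to 0.389) of the cycling level, and so were the enterocyte genes Sis, Fabp1 and Rbp2, 3 of 12. In adip fl/fl-Villi-Cre Olfm4 had 15.8 CPM in hormone-high and 609 CPM in hormone-low members, so its ratio there mixes unlike groups. Sct was higher 37.5-fold (19.6 to 71.5) and 32.7-fold (26.1 to 41.5), but in adip fl/fl all 21 UMIs came from 1 barcode. The 10 genes outside the rule with the largest difference common to both libraries were Agr2, Ccl9, Itln1, Sct, Elapor1, Klk1, Guca2a, Slc12a8, Fxyd3 and Hepacam2. Of these Ccl9, a chemokine, had 32 UMIs in 3 adip fl/fl members and none in the cycling barcodes, and was 42.7-fold (24.1 to 81.4) higher in adip fl/fl-Villi-Cre. Itln1, a lectin of Paneth and goblet cells, was higher 105-fold (38.9 to 327) and 40.3-fold (26.2 to 64.3).

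**Figure D5:**
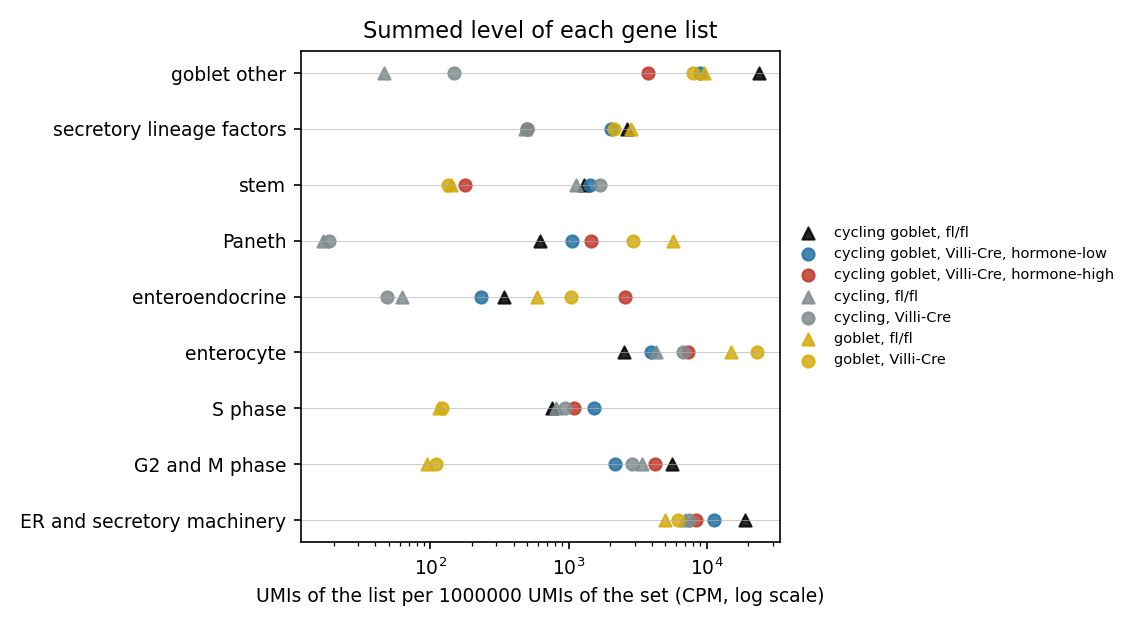
Each point is the summed level of a gene list in a set of barcodes, in CPM (log scale), with triangles for adip fl/fl and circles for adip fl/fl-Villi-Cre. For other goblet genes cycling goblet barcodes lie closer to the goblet barcodes than to the cycling barcodes, and for G2 and M phase they lie near the cycling barcodes. The hormone-high members (red) have 177 CPM of stem cell genes and 2573 CPM of enteroendocrine genes.

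Compared with goblet barcodes, members had lower levels of 12 of 13 enterocyte genes and of 5 of 13 goblet genes outside the rule. Dividing-cell genes were higher, which the choice of both sets had fixed. Because the 6 rule genes fill a large part of a goblet barcode, all other genes appear higher in members, with a median log2 ratio of 0.70 in adip fl/fl and 0.49 in adip fl/fl-Villi-Cre. Of 3263 genes measured in both libraries, 797 (24.4%) were higher and 228 (6.99%) lower. With mitochondrial and rule genes left out of the total, the medians were 0.010 and -0.020, and the counts became 528 and 492 of 4086 genes. The directions given next held under both scalings. Of 32 genes of G2 and M phase 8 passed the filter in both libraries, through the members that were chosen for dividing-cell genes, and were higher. Among them were Ccnb2, a mitotic cyclin, 265-fold higher (63.5 to 2358) in adip fl/fl and 126-fold (52.7 to 396) in adip fl/fl-Villi-Cre, and Cenpe, a kinetochore motor, with 22 UMIs in members and 1 in goblet barcodes of adip fl/fl and 83.7-fold (39.4 to 213) higher in adip fl/fl-Villi-Cre. The chromatin protein Hmgb2 had 3207 and 35.9 CPM in adip fl/fl and 1689 and 52.0 CPM in adip fl/fl-Villi-Cre. The 10 genes outside the rule with the largest common difference were H1f5, Ccnb2, Cenpe, Cdk1, Cdca3, Cenpa, Smc2, Stmn1, Lmnb1 and Hmgb2. Members were chosen for dividing-cell genes and goblet barcodes for few of them, so this order is in part set by the rule.

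The crypt base genes Sox9 and Slc12a2 were higher than in goblet barcodes, and were the 2 of 12 stem cell genes that passed the filter. In adip fl/fl Sox9 passed it through the members alone, where it was high, so this count is set in part by the filter and is a description. Sox9 was higher 22.1-fold (9.55 to 49.8) and 5.43-fold (3.56 to 8.30), and Slc12a2, an ion transporter, 7.93-fold (5.42 to 11.4) and 4.93-fold (4.09 to 5.93). The 5 lower goblet genes outside the rule were Ramp1, Bcas1, Hgfac, Sytl2 and Capn9, and none of the 13 was higher. Of 10 measured lineage factors 2 were lower and none higher in both libraries. Klf4 was lower, at 0.440 (0.306 to 0.613) and 0.325 (0.284 to 0.371), and so was Atoh1, at 0.493 (0.245 to 0.888) and 0.315 (0.240 to 0.407). Others lay above the goblet barcodes on the total of all UMIs without passing the limits in both, such as Dll1 with ratios of 3.38 (1.84 to 5.77) and 1.72 (1.27 to 2.29) and Sox4 with 3.02 (0.785 to 8.38) and 7.09 (5.43 to 9.31). Of 5 measured Paneth genes Nupr1 and Defa24 were lower, while Mmp7, a matrix metalloproteinase, was higher 2.95-fold (1.23 to 6.09) and 2.46-fold (1.86 to 3.22) on the total of all UMIs but not past the limits without the rule genes. For genes of the endoplasmic reticulum the scaling changed the count, as 11 of 25 were higher on the total of all UMIs and 4 of 25 without the rule genes. It also changed the counts of lower genes, which without the rule genes were 8 of 13 goblet genes outside the rule and 4 of 12 lineage factors.

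Between genotypes the members differed in absorptive, secretory and dividing-cell genes, with 4 barcodes on 1 side. Of 3988 genes, 199 (4.99%) were at least 2-fold higher in adip fl/fl-Villi-Cre members and 273 (6.85%) lower. Without the richest barcode of each gene and set the counts were 190 and 91 of 3551 genes. This leaves out 1 of 4 barcodes in adip fl/fl but 1 of 73 in adip fl/fl-Villi-Cre. The smaller number of lower genes is thus set in part by the sizes of the sets. Enterocyte genes were higher for 8 of 12, such as Apoa1 with 1873 CPM against 529 CPM. Endoplasmic reticulum genes were lower for 12 of 25, such as the chaperone Hspa5, G2 and M phase genes for 12 of 29, and other goblet genes for 5 of 11. Among the latter was Agr2, of whose 1375 UMIs in the adip fl/fl members 1142 came from 1 barcode. Of 7 stem cell genes 3 were lower and 1 higher, and of 12 S phase genes 1 was higher. Among lineage factors Sox4 was higher, with 167 against 62.3 CPM, and Creb3l1, Atoh1 and Dll1 were lower. Hes1, the Notch target that represses Atoh1, had 98 UMIs (121 CPM) in adip fl/fl-Villi-Cre and 2 UMIs (31.1 CPM) in adip fl/fl.

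These differences did not all concern comparable barcodes, since 53 of the 73 adip fl/fl-Villi-Cre members were hormone-high. Among hormone-low members alone 152 of 3876 genes (3.92%) exceeded the adip fl/fl level at least 2-fold and 193 (4.98%) lay below it. Enterocyte genes were then higher for 6 of 12, G2 and M phase genes lower for 13 of 20, endoplasmic reticulum genes lower for 10 of 25 and other goblet genes lower for 3 of 11. Atoh1, Dll1 and Creb3l1 were no longer past 2-fold, while Sox4 and Neurog3 were higher. Of 3 measured Notch pathway genes none was past 2-fold, so Hes1 was not counted as higher either. Neurog3 lay in only 2 of the 20 barcodes, and the same 2 held 48 and 42 of the 131 Sox4 UMIs. Of 7 stem cell genes 1 was higher and 1 lower. Olfm4 had 301 UMIs (609 CPM) in the hormone-low adip fl/fl-Villi-Cre members and 7 UMIs (109 CPM) in those of adip fl/fl, and Sox9 had 81.0 CPM against 187 CPM.

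The 5 largest ratios of adip fl/fl-Villi-Cre over adip fl/fl in all members were those of Defa24, St3gal4, Maoa, Apol10a and Mttp. Defa24 had 588 UMIs in 58 of 73 members (725 CPM) and 2 UMIs in 1 of 4 (31.1 CPM), a ratio of 23.3 (6.42 to 193). Of the 588 UMIs, 338 lay in hormone-high members, and 1 hormone-low member held 202. In goblet barcodes the direction was the opposite, with 4631 CPM in adip fl/fl and 2093 CPM in adip fl/fl-Villi-Cre. St3gal4, a sialyltransferase, had 214 UMIs against 1 (ratio 16.95, 3.01 to 673), Maoa, a monoamine oxidase, 193 against 1 (15.3, 2.71 to 607), Apol10a 176 against 1 and Mttp, which loads lipid onto lipoproteins, 146 against 1. All but Defa24 therefore rest on 1 adip fl/fl UMI, and Defa24 rests on 2 from 1 barcode. Without the 8% highest doublet scores 1 adip fl/fl member was left, with at most 1 UMI each of St3gal4, Maoa, Apol10a and Mttp. A count of 0 was set to 3 UMIs in a ratio, so the ratios then depend on this floor and on the depth of 1 barcode. They were 0.504, 0.422 and 0.335 for St3gal4, Maoa and Mttp, which is no measured turn of direction, and 1.34 and 1.26 for Defa24 and Apol10a. None of the 5 was past 2-fold higher in that setting. The 5 lowest ratios were those of Tmem65 at 0.159 (18 UMIs against 9), Ankle1, a nuclease, at 0.159, Rasa4 at 0.166, Nipal2 at 0.168 and Wdyhv1 at 0.170, with 7 to 10 UMIs each in the adip fl/fl members.

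Markers of T, B and plasma, tuft and stromal cells were low in members. The rule itself required 0 UMIs of Cd3e and Cd3g, and removed 8 adip fl/fl-Villi-Cre barcodes that met its other conditions, so the level of T cell genes is set in part by it. The 15 T cell genes had no UMI in adip fl/fl members and 30.8 CPM in those of adip fl/fl-Villi-Cre, with Gzma highest at 8 UMIs and Cd3d, Trac and Trbc2 at 0. The 9 B and plasma cell genes had no UMI and 27.1 CPM, with Igkc highest at 13 UMIs, and Jchain at 0. The 14 tuft cell genes had no UMI and 11.1 CPM. The 8 stromal genes had no UMI and 72.8 CPM, of which 54 UMIs were Acta2 in 1 barcode. The 9 myeloid genes had 249 and 455 CPM, made up of Cd74 and Cst3, which epithelium also expresses, while Csf1r and C1qa had no UMI. The 8 pan-epithelial genes had 11444 and 13245 CPM.

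Adipoq, the gene deleted in the epithelium, had no UMI in any member, nor in the cycling or goblet barcodes of either library. In the members the exact 95% upper limits were 57.4 CPM in adip fl/fl and 4.55 CPM in adip fl/fl-Villi-Cre (3 UMIs would be 46.7 and 3.70 CPM), and the deletion could not be checked here. The adiponectin receptor genes were present at like levels in members of both genotypes. Adipor1 had 125 and 106 CPM and Adipor2 125 and 126 CPM, the latter being 279 and 297 CPM in goblet barcodes.

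When all 8624 barcodes were clustered, 58 of the 77 members fell into 1 of 19 clusters. This cluster held 69 barcodes, 4 of them from adip fl/fl, and its members were 52 of the 53 hormone-high ones and 6 hormone-low ones, 3 of them from adip fl/fl. Its leading genes were Anln, H2ac24, Aurkb, Top2a, Mki67, Ccnf, H2ac8, Melk, Ttr and Esco2, and 31 of 32 G2 and M phase genes, 7 of 15 other goblet genes, 5 of 12 Paneth genes and 2 of 19 enteroendocrine genes were among its markers. It was left unnamed. Another 15 members, all hormone-low and 1 of them from adip fl/fl, lay in a cluster of 300 barcodes led by Olfm4 that had all 12 stem cell genes among its markers. The remaining 4 members lay in 2 further clusters. The separate cluster depended on the settings. At a lower resolution 73 members, 52 of them hormone-high, lay in a cluster of 373 barcodes led by Olfm4 with all 12 stem cell genes among its markers, and with more principal components 72 members lay in such a cluster of 368. A higher resolution again gave a cluster of 69 barcodes with 58 members. Doublets had not been removed from the files. A doublet score put 3 of the 4 adip fl/fl members and 4 of 73 adip fl/fl-Villi-Cre members, none of them hormone-high, among the 8% highest scores of their library, and how much of the result this accounts for was not tested.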

How the data were processed

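Each genotype was 1 droplet library (10x 3′ V3), converted with bcl2fastq 5.0.1. The deposited files hold UMI counts per gene and barcode, which the authors made with Cell Ranger (7.1.0 per the file headers) on the mouse build mm10 per the labels, with no ambient RNA correction stated. Limits on genes and mitochondrial share are those of the study, and fewer barcodes remained here than the study describes after its filters. Doublets were not removed, because Scrublet called only 3 barcodes in each library; removing the 8% highest scores was an alternative.

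Counts were summed over the barcodes of a set (Python 3.11.15, numpy 2.4.6, scipy 1.17.1) and given as CPM of all UMIs of the set. Shares have exact Clopper-Pearson 95% intervals and ratios exact conditional binomial 95% intervals, which take UMIs as independent; a count of 0 was set to 3 UMIs in a ratio. The fold calculation was tested on simulated data. No p-value was computed, as barcodes of 1 library are not replicates. Clusters came from Seurat 5.3.0 (R 4.3.3; log-normalization, 2000 variable genes, 20 principal components, resolution 0.8). Named genes were the rule genes, the list genes, the 5 highest and 5 lowest ratios between genotypes and the 10 largest ratios common to both libraries. The members, lists and rules were chosen with earlier results of these data known. Alternatives changed the depth, gene, mitochondrial, cell cycle, goblet and T cell limits, the total, the weighting of barcodes, the richest barcode, the doublet score and the clustering; leaving out the hormone-high members was added after the values were seen. Shares of barcodes with a UMI were compared between sets after thinning to 2000 or 4000 UMIs; those of single sets are unthinned.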

Additional observations from a re-analysis of the deposited data

Results flagged for a closer look

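Zg16 differed in opposite directions in the 2 libraries when members were set beside cycling barcodes. Its share of the 6 goblet genes differed by -22.13 percentage points in adip fl/fl, where members were lower, and by 6.407 points in adip fl/fl-Villi-Cre, where they were higher. The latter difference depended on the richest barcode of both sets and on hormone-high members. Without the richest barcode of each set the share fell from 28.66% to 24.50% in members and rose from 22.25% to 24.45% in cycling barcodes. Hormone-low members had 21.66%, below cycling barcodes, and 10.26% without their richest barcode. Fcgbp did the reverse, with 6.378 points more in adip fl/fl and -2.797 in adip fl/fl-Villi-Cre against cycling barcodes, and with 2.674 and -2.780 against goblet barcodes. With 1 library per genotype these differences were not tested.

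Outside the rule, 8 adip fl/fl-Villi-Cre barcodes met every condition except that Cd3e or Cd3g was detected, and 2 met every condition except the mitochondrial limit. The adip fl/fl library had 0 of either kind. The 8 barcodes held 9401 to 84085 UMIs and goblet shares of 1.66% to 19.6%, and none reached 800 CPM of enteroendocrine genes.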

How the results depend on the processing

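No paired analysis was possible because each group has 1 library. The ratio of the shares of members (10.1) became 1.105 at a goblet share of at least 5%, computed against a floor of 3 barcodes in adip fl/fl, 38.15 without the 8% highest Scrublet scores and 2.762 for hormone-low members alone. Without those highest scores 1 adip fl/fl member remained. The genes then counted between genotypes were 86 higher and 161 lower, against cycling barcodes 20 and 1, and against goblet barcodes 94 and 11. The ratios of St3gal4, Maoa and Mttp were 0.5043, 0.4222 and 0.3354. These rest on at most 1 UMI in that member or on the floor of 3 UMIs, and show no measured turn of direction. Without the richest barcode of each gene, 91 genes were lower between genotypes, 40 higher than in cycling barcodes and 440 higher than in goblet barcodes. Fewer genes were lower than in cycling barcodes with mean barcode CPM (4) and at a goblet share of at least 2% (8), and more in hormone-low members (73). Against goblet barcodes 528 were higher and 492 lower without mitochondrial and rule genes in the total, and 132 were lower at a goblet share of at least 2%. Spink4 in adip fl/fl was 18.57% without the richest barcode. In adip fl/fl-Villi-Cre, Zg16 was 33.37% and Spink4 19.18% as a mean over barcodes, 24.50% and 19.06% without the richest barcode and 21.66% and 15.65% in hormone-low members. Of 81 alternative values, the other 56 stayed within the counting interval or within 1.5 times. The cause of these shifts was not tested. Only 4 adip fl/fl members limit every comparison between genotypes.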

Other observations

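Among the 4015 genes that could be measured in adip fl/fl-Villi-Cre members, 292 were at least 2-fold higher in hormone-high than in hormone-low members and 265 lower, given as a description because the groups were drawn on these values. Genes of G2 and M phase were higher for 13 of 27. Spc25, a kinetochore protein outside that list, was higher 9.36-fold (3.91 to 27.2). The histone gene H2ac8 was higher 8.13-fold (4.94 to 14.1), with 313 CPM in hormone-high and 38.5 CPM in hormone-low members. Stem cell genes were lower for 5 of 5, lineage factors for 10 of 12 and S phase genes for 6 of 13. Rnase4, a secreted ribonuclease, had 22.1 CPM in hormone-high and 188 CPM in hormone-low members. Peg3, an imprinted gene, had 33 UMIs in 17 hormone-high members and none in hormone-low ones.

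Among passing barcodes with fewer than 3 cell cycle genes and a goblet share within the range of the hormone-high members, 10 lay in adip fl/fl and 46 in adip fl/fl-Villi-Cre, and 0 and 3 of them reached 800 CPM of enteroendocrine genes.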
